A study of Mus musculus with 4 samples.

Results

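*Celf4*, *Celf6* (*Brunol6* on the array), *Elavl1*, *Elavl2*, *Elavl3*, *Elavl4*, *Nova1* and *Nova2* encode RNA-binding proteins, most of them used by neurons. All probes that the array annotation gives 1 of these 8 symbols were taken, which was 16 of 41174 probes and 7 of the 8 genes. No probe carried the symbol *Nova2*, which was not analysed here. The genes were chosen by the measured log2 ratios of *Celf4* and *Celf6* on these same arrays, so those values are a description and no test is drawn from them.

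RNA came from dissected midbrain of mouse embryos at E12.5, counted in embryonic days, and was hybridized on 4 dual-colour Agilent arrays. The paper also describes this material as mesodiencephalic and retromammillary tegmental, so it was not midbrain alone. The mutant was *Lmx1a-dr/dr*, homozygous for dr-J, a point mutation of the transcription factor gene *Lmx1a*, kept on a C57Bl/6J background and bred by crossing heterozygotes. Each of the 4 dr/dr samples (replicates a to d) was RNA pooled from 5 midbrains, and each was set against the same pool of RNA from 20 *Lmx1a+/+* midbrains, called wild-type here. The dr/dr RNA was labelled with Cy3 in replicates a and c and with Cy5 in replicates b and d.

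The Celf, Elavl and Nova families act on RNA after transcription. Celf proteins bind GU-rich RNA and control splicing, translation and decay. Elavl proteins bind AU-rich stretches and mostly stabilize their targets. *Elavl1* (HuR) is made in most cells, whereas *Elavl2* (HuB), *Elavl3* (HuC) and *Elavl4* (HuD) appear when neurons are born. Nova proteins decide which exons neurons include in transcripts for synaptic proteins.

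The RefSeq table of promoters (GRCm38.p6) held 1 or more starts for each of the genes except *Celf4*, and 16 windows of 250 bases upstream of a start were read. They were searched on both strands for TAATTA, a core that many homeodomain proteins bind, and for the promoter motifs CCAAT and TATAAA. Windows are shown for *Celf6*, which had the lower level in dr/dr, for *Elavl1*, which was higher on all 4 arrays, and for *Elavl4*, the only one of these genes with TAATTA. Each is written 5′ to 3′ on the strand of the gene, and capitals mark the motifs. The *Celf6* windows are at chr9:59578087-59578336 and chr9:59589038-59589287 (plus strand), that of *Elavl1* at chr8:4325101-4325350 and that of *Elavl4* at chr4:110287528-110287777 (both minus strand).
Celf6 start 1: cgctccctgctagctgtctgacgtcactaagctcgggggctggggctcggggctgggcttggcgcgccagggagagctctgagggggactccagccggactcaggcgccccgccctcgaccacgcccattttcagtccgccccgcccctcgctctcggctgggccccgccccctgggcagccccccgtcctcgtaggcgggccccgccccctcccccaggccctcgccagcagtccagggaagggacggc
Celf6 start 2: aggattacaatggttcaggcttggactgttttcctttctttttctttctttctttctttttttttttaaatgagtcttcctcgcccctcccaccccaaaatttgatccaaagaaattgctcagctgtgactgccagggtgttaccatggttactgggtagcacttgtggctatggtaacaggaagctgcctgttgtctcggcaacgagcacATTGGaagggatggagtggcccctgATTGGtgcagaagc
Elavl1 start 1: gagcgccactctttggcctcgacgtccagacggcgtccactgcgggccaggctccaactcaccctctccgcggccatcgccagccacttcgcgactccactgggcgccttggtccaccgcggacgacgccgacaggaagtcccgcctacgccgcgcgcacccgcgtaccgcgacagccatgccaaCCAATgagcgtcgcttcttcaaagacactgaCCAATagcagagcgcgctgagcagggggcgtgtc
Elavl4 start 2: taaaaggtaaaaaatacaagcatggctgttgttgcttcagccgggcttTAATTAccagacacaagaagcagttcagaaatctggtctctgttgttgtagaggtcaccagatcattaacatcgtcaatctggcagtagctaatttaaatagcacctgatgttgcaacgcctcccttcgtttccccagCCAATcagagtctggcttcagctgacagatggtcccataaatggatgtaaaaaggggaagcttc

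The window of *Celf6* start 1 was 75.6% G and C, against a median of 52.4% over the 32851 windows in the table, and held none of the motifs. *Celf6* start 2 was 46.4% G and C and had 2 CCAAT motifs, both on the other strand, as ATTGG. *Elavl1* also had 2 CCAAT motifs. In *Elavl4*, 2 of 4 windows held TAATTA, and these windows overlap each other. Of all windows in the table, 4.84% held TAATTA, 33.8% CCAAT and 12.4% TATAAA. No printed motif overlaps another. A match is given as a description of the sequence and not as a binding site.

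The values below are log2 ratios with dr/dr on top and wild-type underneath, so that a negative ratio is a lower level in dr/dr. A probe was called when its family-wise p in the permutation F2 test was under 0.05 over all probes. Standard errors are the moderated errors of limma with a dye term. Of the 16 probes, 2 were called, both lower in dr/dr, against 0.277% of all 41174 probes (0.189% lower and 0.0874% higher). Nothing is read from that share, since these 2 probes were picked for being called. At a limma adjusted p under 0.10 the same 2 probes were called, against 0.605% of all probes, and at an adjusted p under 0.05 limma called 0 of the 16 and 0 of all probes. The median ratio of the 16 probes was 0.01, and that of all probes was 0.00. With the dye term, the p-values and standard errors draw on differences between arrays that had dr/dr in the same dye. The difference between arrays with dr/dr in Cy3 and those with dr/dr in Cy5 is assigned to dye. Any part of it that came from the dr/dr pools is therefore not counted as spread. No p-value covers variation among wild-type litters, because 1 wild-type pool served all arrays.

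The array as a whole limits what a small ratio can show. Log ratios of arrays with opposite dye orientation correlated at -0.342 to -0.29 over all probes, and those with the same orientation at 0.639 (a and c) and 0.579 (b and d). The SD over probes was 0.154 for the dye effect and 0.103 for the genotype effect. Among the 16 probes the dye effect lay between -0.24 and 0.22, and it was larger than the genotype effect for 8 of them. Over all 41174 probes the dye effect lay between -1.81 and 2.65 and was the larger for 25216. Each orientation held its own dr/dr pools, so dye effects and differences among pools cannot be told apart.

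*Celf4*, whose loss gives mice seizures, was measured by 3 probes. The brightest, MMAB002991, had ratios of -0.43, -0.69, -0.22 and -0.72 in replicates a, b, c and d. Its log2 intensities after loess were 10.39, 10.14, 10.53 and 10.20 in dr/dr, against 10.82, 10.83, 10.75 and 10.92 in wild-type. Every dr/dr value lay below every wild-type value. The mean ratio was -0.52 (standard error 0.046, SD 0.235, n = 4), which is 69.9% of wild-type. The arrays with dr/dr in Cy5 (b and d) gave a mean of -0.71 and those with dr/dr in Cy3 (a and c) -0.33, a dye effect of -0.19. Without the dye term this probe had a family-wise permutation p of 0.6466.

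The other *Celf4* probes were dimmer and stayed near 0. MMAB017008 gave 0.01, 0.06, -0.19 and -0.08 in replicates a to d, with a mean of -0.05 (standard error 0.049). MMAB031301 gave -0.17, 0.10, 0.02 and -0.00, with a mean of -0.01 (standard error 0.046). On these probes the sign changed between arrays and the dr/dr and wild-type intensities overlapped. Their raw intensities were 80.42 to 163.70 in dr/dr and 77.27 to 201.30 in wild-type for MMAB017008, and 47.14 to 77.54 in dr/dr and 44.30 to 95.59 in wild-type for MMAB031301. Median local background was 31 to 34. Because no background was subtracted, ratios of dim probes are drawn towards 0. With normexp background correction the means were -0.04 and -0.02. That correction added an offset of 50, which also draws dim ratios towards 0, so it cannot show whether dimness hid a change. The 3 probes of *Celf4* therefore do not give 1 value for the gene, and the transcripts they match were not analysed here.

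*Celf6*, a splicing regulator of the brain, was measured by 1 probe, MMAB031460. Its ratios were -0.57, -0.57, -0.37 and -0.53 in replicates a, b, c and d. Log2 intensities after loess were 8.77, 8.20, 8.44 and 8.37 in dr/dr, against 9.33, 8.76, 8.81 and 8.90 in wild-type. On each array dr/dr was lower than its own wild-type channel, although the dr/dr and wild-type ranges touched (8.77 in dr/dr of replicate a, 8.76 in wild-type of replicate b). The mean ratio was -0.51 (standard error 0.044, SD 0.093, n = 4), which is 70.4% of wild-type. The dye effect was -0.04, with -0.55 where dr/dr was in Cy5 and -0.47 where it was in Cy3. In tissue of mixed cells, fewer cells of a type and less RNA per cell cannot be told apart. The paper also examined *Celf4* and *Celf6* by qPCR and in situ hybridization, and those outcomes are not reported here.

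**Figure D1:**
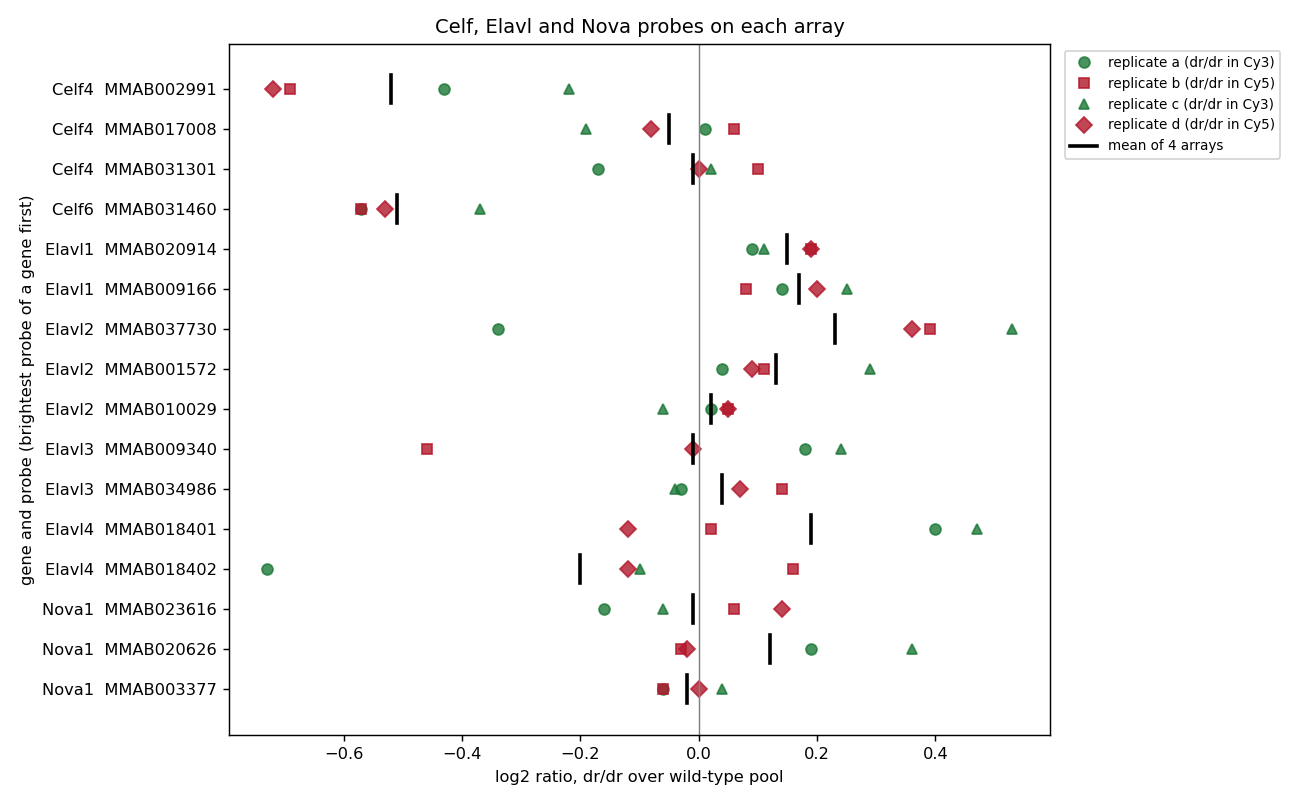
Log2 ratio, dr/dr over the wild-type pool (horizontal axis), for each of the 16 probes, with 1 point per array, green where dr/dr was in Cy3 and red where it was in Cy5, and a bar at the mean of 4 arrays. The brightest *Celf4* probe and the *Celf6* probe lie below 0 on all 4 arrays, both *Elavl1* probes lie above 0 on all 4, and replicate a stands apart for 1 *Elavl2* and 1 *Elavl4* probe.

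*Elavl1*, the family member made in most cells, was measured by 2 probes. MMAB020914 gave 0.09, 0.19, 0.11 and 0.19 in replicates a to d, with a mean of 0.15 (standard error 0.029), 111% of wild-type. MMAB009166 gave 0.14, 0.08, 0.25 and 0.20, with a mean of 0.17 (standard error 0.040), 112% of wild-type. Both probes were above 0 on every array, although the log2 intensities after loess overlapped, at 10.04 to 10.32 in dr/dr and 9.85 to 10.23 in wild-type for MMAB020914, and at 7.89 to 8.49 in dr/dr and 7.81 to 8.35 in wild-type for MMAB009166. Neither was called, and the limma adjusted p was 0.133 and 0.158. Over all probes 8.06% were higher on all 4 arrays, and 3 of the 16 probes were, the third being an *Elavl2* probe. Lower on all 4 arrays were 8.02% of all probes, and among the 16 only the called *Celf4* and *Celf6* probes.

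*Elavl2*, one of the neuronal members, had 3 probes that spread more. The brightest, MMAB037730, gave -0.34, 0.39, 0.53 and 0.36 in replicates a to d, with a mean of 0.23 (standard error 0.147). Replicate a was the only one below 0. The estimate with the dye term, which averages the means of both dye orientations, was 0.45 without replicate a and 0.02 without replicate c. MMAB001572 gave 0.04, 0.11, 0.29 and 0.09, with a mean of 0.13 (standard error 0.050). The dim probe MMAB010029 gave 0.02, 0.05, -0.06 and 0.05, with a mean of 0.02. None of the 3 was called.

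*Elavl3*, an early marker of newborn neurons, had 2 probes with means near 0. MMAB009340 gave 0.18, -0.46, 0.24 and -0.01 in replicates a to d, with a mean of -0.01 (standard error 0.082). The mean was 0.21 where dr/dr was in Cy3 and -0.24 where it was in Cy5, the latter from -0.46 in replicate b and -0.01 in d. The dim probe MMAB034986 gave -0.03, 0.14, -0.04 and 0.07, with a mean of 0.04 (standard error 0.031).

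*Elavl4*, known for stabilizing *Gap43* mRNA, had 2 probes of opposite sign. MMAB018401 gave 0.40, 0.02, 0.47 and -0.12 in replicates a to d, with a mean of 0.19 (standard error 0.039). Here the arrays with dr/dr in Cy3 gave 0.44 and those with dr/dr in Cy5 -0.05, so that the ratio differed between the orientations. With median spot signals the mean was 0.02. MMAB018402 gave -0.73, 0.16, -0.10 and -0.12, with a mean of -0.20 (standard error 0.118). Without replicate a the estimate of MMAB018402 with the dye term was -0.04. Neither probe was called, and *Elavl4* has no single direction on these arrays.

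*Nova1*, a splicing regulator of neurons, had 3 probes, none of which was called. MMAB023616 gave -0.16, 0.06, -0.06 and 0.14 in replicates a to d, with a mean of -0.01 (standard error 0.036). MMAB020626 gave 0.19, -0.03, 0.36 and -0.02, with a mean of 0.12 (standard error 0.041). The third, MMAB003377, gave -0.06, -0.06, 0.04 and -0.00, averaged -0.02 and was above background in 1 dr/dr and 2 wild-type channels of 4. The other 15 of the 16 probes were above background on all arrays in both channels.

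**Figure D2:**
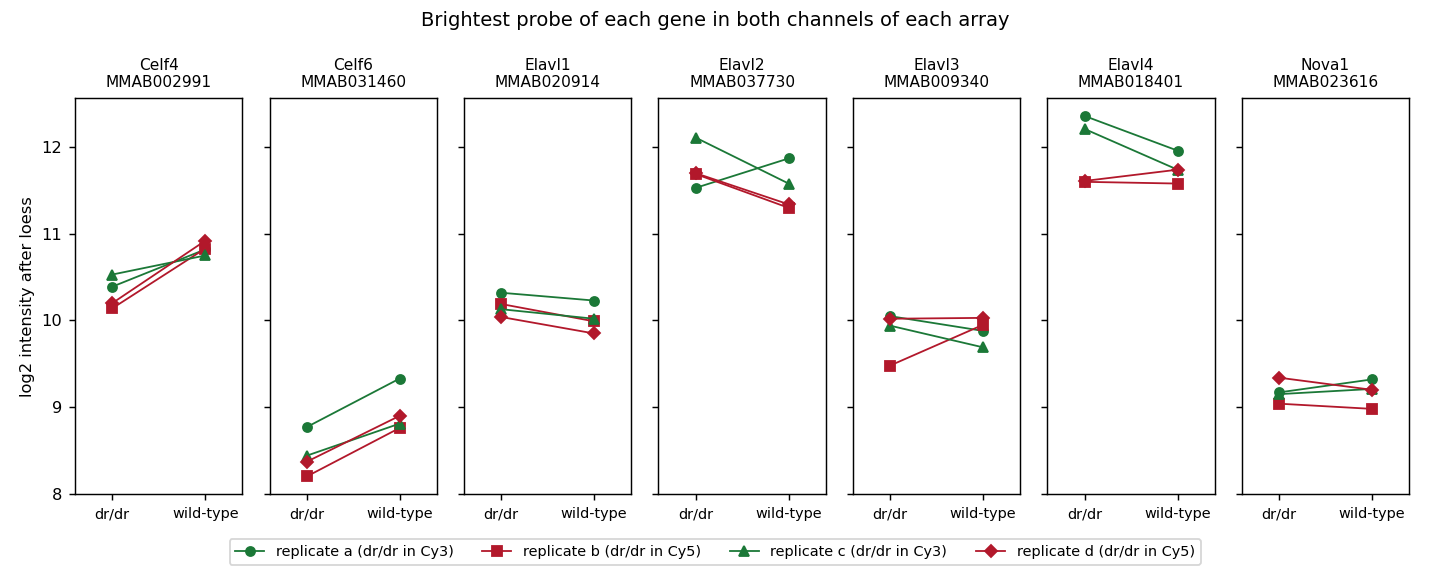
Log2 intensity after loess (vertical axis) of the brightest probe of each gene, dr/dr left and wild-type right, with 1 line per array, green where dr/dr was in Cy3 and red where it was in Cy5. All 4 lines go up towards wild-type for *Celf4* and *Celf6* and down for *Elavl1*, whereas they cross for *Elavl2*, *Elavl3*, *Elavl4* and *Nova1*.

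The ratios are set against brightness over all probes in the plot of ratio by intensity. The called *Celf4* and *Celf6* probes lie in the lower fringe of the cloud, in the middle and upper part of the brightness range, and the other 14 probes lie within the cloud.

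**Figure D3:**
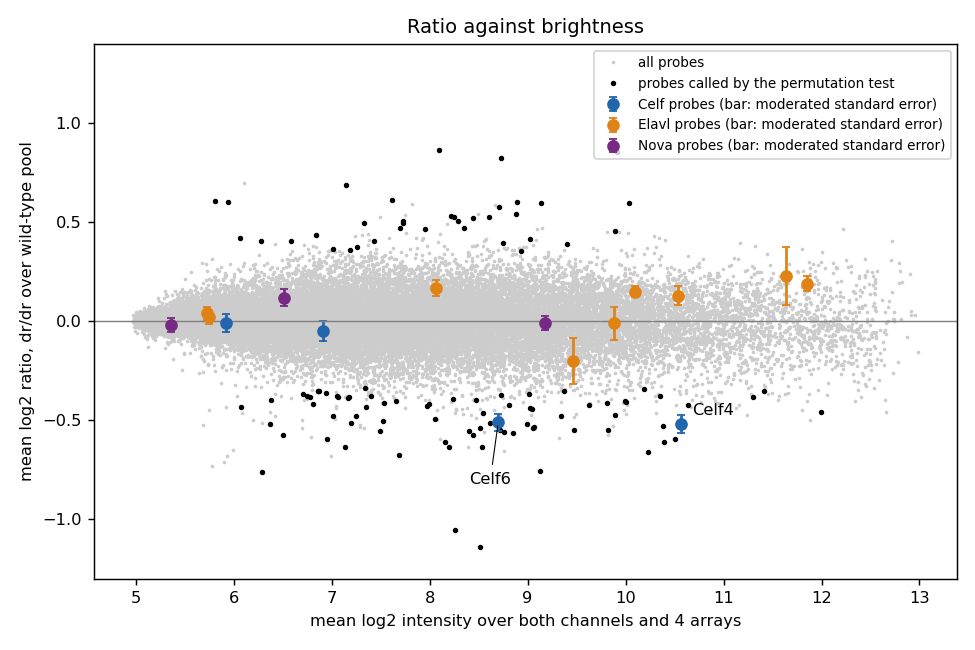
Mean log2 ratio, dr/dr over the wild-type pool (vertical axis), against mean log2 intensity (horizontal axis) for 41174 probes in grey, with the 114 called probes in black and the 16 Celf, Elavl and Nova probes in colour (bars, moderated standard error). The *Celf4* (-0.52) and *Celf6* (-0.51) probes lie well below 0, and the Elavl and Nova1 probes lie between -0.20 and 0.23.

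The other Celf genes were measured alongside, and none was called. *Celf1* had means of 0.01 and -0.02 on 2 probes, *Celf3* -0.03 on 1 probe, and *Celf5* -0.09, -0.02 and -0.04 on 3 probes. *Celf2* had 13 probes between -0.24 and 0.17. Within the family, only a *Celf4* and the *Celf6* probe were called, and the difference between genes was not tested.

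Other RNA-binding genes were read beside the share over all genes, of which 0.508% had a called probe, and beside the 17.1% of all probes at an unadjusted limma p under 0.05. Of 18 measured splicing regulators none was called (limma at an unadjusted p under 0.05, 1 lower and 4 higher), with a median of 0.05. The lowest were *Ptbp1*, the repressor of neuronal exons in progenitors, at -0.12 and *Rbfox2* at -0.10, and the highest were *Ptbp2* and *Mbnl1*, both at 0.19. Of 16 proteins that bind AU-rich or C-rich elements, limma at an unadjusted p under 0.05 gave 4 lower and 4 higher, with a median of -0.07. Only 1 was called, *Pcbp4*, a poly(C)-binding protein gene, which fell by 0.35 (family-wise permutation p = 0.0276). Next to it stood *Hnrnpd*, which binds AU-rich RNA, at -0.31, and at the other end *Hnrnpk* at 0.14 and *Igf2bp3* at 0.18, none of them called. Of 17 translation and RNA transport regulators, limma at an unadjusted p under 0.05 gave 2 lower and 4 higher, with a median of 0.06. Among them 1 was called, *Cpeb4*, a cytoplasmic polyadenylation factor gene, which rose by 0.39 on 1 of its 6 probes. By brightest probe this list ran between *Fxr2* at -0.29 and *Msi1* at -0.18, and *Cpeb2* at 0.23 and *Fmr1* at 0.27. Of 12 transcripts known as targets of Elavl, Nova or Celf4, limma at an unadjusted p under 0.05 gave 0 lower and 0 higher, with a median of -0.05. Here 1 was called, *Dab1*, the reelin adaptor, which fell by 0.34 on 1 of its 7 probes. The *Dab1* probes ran from -0.34 to 0.22, and the brightest was at -0.04. *Mapt* was at -0.10, *Ache* at -0.09, *Gphn* at 0.04 and *Myc* at 0.05 on their brightest probes, and *Gap43*, named because *Elavl4* binds it, was at -0.07. The median over all genes, by brightest probe, was 0.00.

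**Figure D4:**
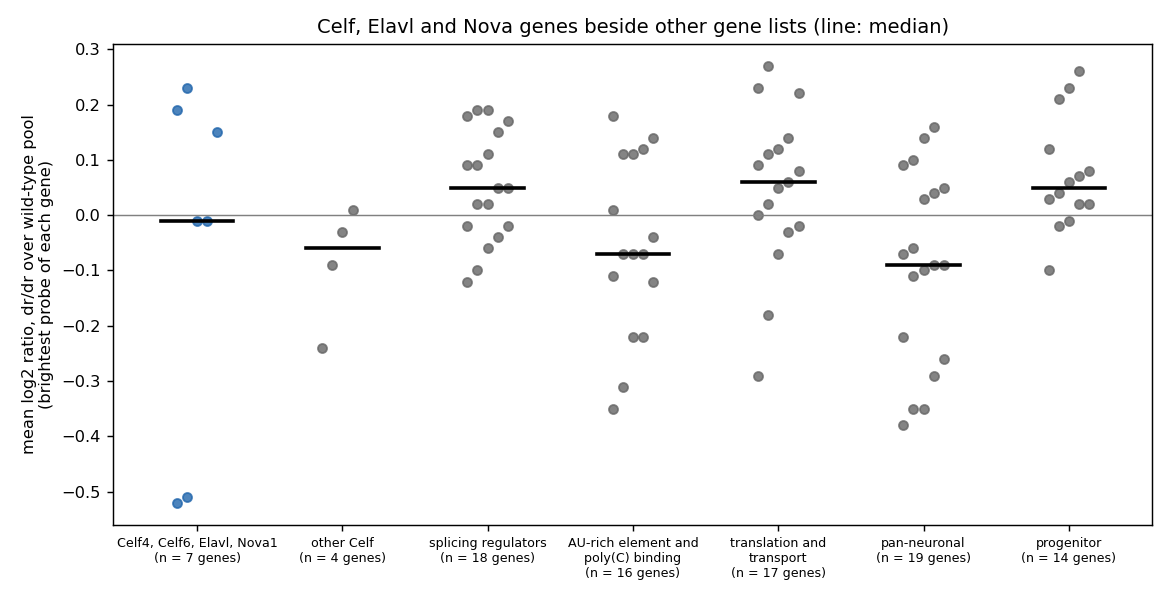
Mean log2 ratio, dr/dr over the wild-type pool (vertical axis), of the brightest probe of each gene, for the 7 genes (blue) and 6 other lists (grey), with a line at each median. The 2 blue points near -0.5 are *Celf4* and *Celf6*, and the points of the other lists lie between -0.38 and 0.27.

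The tissue label was checked against its markers. All 11 midbrain identity genes were above background on all arrays in both channels. By brightest probe 7 lay below 0 and 4 above, with a median of -0.04. Of the 11 genes 3 fell, namely *Th* (-0.55), *Nr4a2* (-0.75 on 1 of its 3 probes, which ran up to -0.06) and *Lmx1a* (-0.61). *En1* was at -0.48 and below 0 on all 4 arrays without being called (family-wise permutation p = 0.1478). *Pax7*, of dorsal midbrain, was at 0.12 and *Otx2*, of forebrain and midbrain, at 0.20. *Th* and *Nr4a2* mark dopaminergic neurons. dr-J is a point mutation, so a level of *Lmx1a* is no check of the genotype.

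Neuronal markers were followed because *Celf4* and *Celf6* are neuronal genes. Of 19 measured pan-neuronal genes, 2 fell (0.508% of all genes were called), *Syp*, of synaptic vesicles, by 0.38 (family-wise permutation p = 0.0128) and *Scg2*, of secretory granules, by 0.35 (family-wise permutation p = 0.0324), and none rose. Limma at an unadjusted p under 0.05 gave 3 lower and 2 higher (17.1% of all probes), and the median was -0.09. *Syp* had ratios of -0.42, -0.33, -0.37 and -0.39 in replicates a to d, and *Scg2* -0.42, -0.23, -0.48 and -0.28, so that both were below 0 on all 4 arrays. *Tubb3*, neuronal tubulin, was at -0.35 without being called, with -0.85, 0.06, -0.75 and 0.16 in replicates a to d, and *Dcx* was at 0.14 and *Map2* at 0.16. Summed over the list, the intensity after loess was 46671 to 54212 in dr/dr and 45210 to 62528 in wild-type, and the log2 ratio of the sums was -0.38, 0.05, -0.22 and 0.20 on replicates a to d. All 19 genes were above background on all arrays. The part of neuron number in the *Celf4* and *Celf6* ratios was not tested.

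No marker of other cells was called, where 0.508% of all genes were. Of 14 progenitor genes limma gave 0 lower and 2 higher at an unadjusted p under 0.05 (17.1% of all probes), the median was 0.05 (*Notch1* -0.10, *Top2a* -0.02, *Hes5* 0.23, *Mki67* 0.26), and the sum was 25103 to 29662 in dr/dr and 21643 to 33525 in wild-type. Blood genes (5 measured) had sums of 11625 to 17545 in dr/dr and 11979 to 20526 in wild-type, with log2 ratios of the sums of -0.55, 0.51, -0.59 and 0.32 on replicates a to d. Sums were 1378 to 1487 in dr/dr and 1430 to 1706 in wild-type for 7 endothelial and pericyte genes, 830 to 1049 in dr/dr and 835 to 1130 in wild-type for 6 mesenchyme and neural crest genes, and 428 to 507 in dr/dr and 424 to 525 in wild-type for 3 microglia genes. None of these markers was at 0, and all were above background on all arrays in both channels. Their part in the *Celf4* and *Celf6* ratios was not tested.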

How the data were processed

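The authors scanned the arrays, extracted spots with ImaGene and deposited raw intensity values per channel, without background subtraction or normalization. The authors also deposited a table of log2 ratios, which they normalized by print-tip loess, used here only as an alternative. Genes were named by the array annotation, with 1 symbol for 34186 probes and none for 6988. The members and gene lists were chosen with earlier results of these data known.

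Log2 ratios were computed from mean spot intensities with 1 loess curve per array (span 0.3, 4 iterations; limma 3.58.1, R 4.3.3). Of 45220 spots, 4046 controls had no weight and 41174 probes were tested. No dim probes were removed. "Above background" means a spot intensity over local background by 2 SD of the background. The permutation F2 test of the study's methods, with a dye term, 5000 global shuffles of residuals and a family-wise p under 0.05, made the calls (Python 3.11.15, numpy 2.4.6, pandas 2.3.3). Limma with a dye term and Benjamini-Hochberg adjustment gave standard errors, and its smallest adjusted p was 0.0959. The permutation test was also run on simulated data, and limma was not. In lists a gene was represented by its brightest probe. Named are every probe of the members, and of other lists the called genes and, for the RNA-binding, neuronal, progenitor and midbrain lists, the 2 lowest and 2 highest; of the remaining lists only counts and sums are given. *Gap43* and *En1* were chosen outside this rule, after their values were seen. The small number of arrays limits the precision.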

Additional observations from a re-analysis of the deposited data

How the results depend on the processing

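The *Celf4* probe MMAB002991 and the *Celf6* probe were called under median centring, normexp correction, median spot signals, the authors' log2 table, removal of dim probes, an intensity trend in limma, shuffling of full-model residuals and limma at an adjusted p under 0.10 (chosen after the values were seen). Without the dye term 1 of the 2 was called, *Celf6*. Limma at an adjusted p under 0.05 called 0 of the 16 probes (7 at an unadjusted p under 0.05, where 17.1% of all probes were), as did the permutation test with any 1 array left out (0 to 0). Ratios with 1 array left out are estimates with the dye term, which average both dye orientations, and not plain means of the remaining arrays. For the *Celf4* and *Celf6* probes they were -0.57 to -0.46 and -0.56 to -0.46. Pooled permutation p-values with Benjamini-Hochberg adjustment called 3, adding the *Elavl4* probe MMAB018401 as higher. Over all probes, calls numbered 344 with median spot signals, 36 without the dye term, 0 by limma, 399 with the intensity trend, 2223 by pooled permutation, 249 at an adjusted p under 0.10, and 0 to 7 with 1 array left out. Of 155 recalculated ratios of the 16 probes, 9 were a lost call of the *Celf4* or *Celf6* probe, and 1 of an uncalled probe moved by more than the SD of its 4 arrays (*Nova1* MMAB003377, to -0.09 with median centring). The called ratios stayed below 0. Uncalled ratios near 0 changed sign, such as *Elavl3* MMAB009340 (-0.01, and 0.10 without replicate b) and *Nova1* MMAB023616 (-0.01, and 0.03 with median centring). *Elavl4* MMAB018401 was at 0.02 with median spot signals, and *Elavl2* MMAB037730 at 0.02 to 0.45 with 1 array left out. Without dim probes, 5 of the 16 were not measured. No paired analysis was possible because there is 1 group, and each array already sets its dr/dr sample against the same wild-type pool.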

Other observations

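The probes with the 4 ratios nearest to those of the called *Celf4* and *Celf6* probes were listed among 27216 named probes above background on all arrays (Euclidean distance over 4 ratios, a description). For *Celf4* they were *Mcf2l* (0.103), *Casz1* (0.183), *Lmx1a* (0.219), *Ccnt1* (0.224) and *Ptms* (0.241). *Lmx1a*, the mutated gene, had ratios of -0.46, -0.75, -0.39 and -0.84 in replicates a to d. For *Celf6* they were *Mtch1* (0.086), *Ube2ql1* (0.139), *Flywch1* (0.141), *Ptms* (0.152) and *Thra* (0.162), the last a thyroid hormone receptor gene. *Ptms* was near both. Of the 10, *Mcf2l*, *Casz1*, *Lmx1a*, *Mtch1* and *Thra* were called.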
